A study of Mus musculus with 19 samples.

Results

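The transcripts described here are 8 genes by which fat cells are commonly recognised: Adipoq, Lep, Retn, Cfd, Fabp4, Cidec, Adig and Ucp1. They were taken by symbol from a table of 54176 rows counted in mouse gastrocnemius, a calf muscle, and all 8 were found. All 8 were also among the 17028 genes with enough counts to be tested. The series concerns weight regain and energy expenditure in mice that overexpress lipoprotein lipase in skeletal muscle. All animals were FVB mice, and the muscle was flash-frozen in 1 of 2 phases: weight loss maintenance (WLM), or refeeding that had lasted 24 hours (REL). The groups were mCK-hLPL_REL (n = 5), WT_REL (n = 4), mCK-hLPL_WLM (n = 5) and WT_WLM (n = 5). The name mCK-hLPL denotes a human LPL transgene driven by the promoter of muscle creatine kinase, and WT denotes wild type. The labels give neither the age of the mice nor the number of transgenic lines. Whether the libraries come from different animals is not stated either, so a p-value here measures the spread among these libraries alone, which may be technical. The table has no row for the transgene, which leaves the genotype labels unchecked.

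White fat cells store triglyceride in a single large lipid droplet and secrete hormones and complement proteins into the blood. In skeletal muscle they lie between the fibres and around the muscle, so a muscle taken whole carries their transcripts without the fibres making them. Adiponectin, leptin and resistin are secreted by white fat cells in mice, and leptin synthesis there is known to fall in fasting and to return with feeding. Brown and beige fat cells burn lipid for heat through the proton carrier encoded by Ucp1.

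Total counts per library ran from 35595030 to 51073355, and the ranges of the 4 groups overlapped. The tissue label was borne out by its defining transcripts: Myh4 was at 24300 to 61200 CPM (counts relative to the scaled library size) and Ckm at 17400 to 29900 CPM. Some libraries were high in markers of other tissues. A list of 19 lymph node, T, B and plasma cell genes summed to 90.9 CPM in mCK-hLPL_WLM replicate 3, to 104 CPM in WT_WLM replicate 1 and to 113 CPM in WT_WLM replicate 5, against at most 26.8 CPM elsewhere. A list of 9 liver genes summed to 178.5 and 85.55 CPM in mCK-hLPL_REL replicates 5 and 4 and to 173 CPM in WT_REL replicate B, against at most 37.6 CPM elsewhere. A list of 6 erythroid genes summed to 11660 CPM in mCK-hLPL_REL replicate 1, against at most 4482 CPM elsewhere. Fits without the libraries high in the lymph node or liver list are given below for some results only. Most genotype values in weight loss maintenance and most refeeding values in wild type include them. WT_WLM replicates 1 and 5 were also the highest WT_WLM libraries in Adipoq, Cfd, Fabp4, Cidec, Retn and Adig, while Lep was highest in replicate 4. In whole muscle, fewer fat cells and less of a transcript per fat cell cannot be told apart, and this holds for each value below.

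The 8 genes lie apart in the genome, and GENCODE M21 places no other gene over any of them on either strand (GRCm38 coordinates throughout). Adipoq spans 23146536 to 23158028 on chromosome 16 (plus strand), Lep 29060220 to 29073877 on chromosome 6 (plus), Retn 3655770 to 3660110 on chromosome 8 (plus) and Cfd 79890853 to 79892655 on chromosome 10 (plus). Fabp4 spans 10204088 to 10208576 on chromosome 3 (minus strand), Cidec 113424634 to 113435760 on chromosome 6 (minus), Adig 158502612 to 158508198 on chromosome 2 (plus) and Ucp1 83290352 to 83298452 on chromosome 8 (plus). All 8 are protein-coding. Levels can be set side by side only per length, for which CPM was divided by the kilobases of annotated exon. On that scale the mean level over the 19 libraries was 163 CPM per kb for Cfd, 81.2 for Fabp4, 31.9 for Adipoq and 22.3 for Cidec. Retn was at 6.62, Lep at 4.66, Adig at 4.32 and Ucp1 at 0.469 CPM per kb. Annotated exons cover all 4489 bases of Fabp4, introns of the main transcript included, so its level per kb is understated. Neighbours in this order overlapped in their ranges over libraries (Cfd 85.3 to 261 and Fabp4 51.6 to 110 CPM per kb; Adig 2.03 to 8.59 and Ucp1 0 to 3.46 CPM per kb), except that the lowest Fabp4 value was just above the highest of Adipoq, 50.8 CPM per kb.

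The stretches just upstream of 4 genes are shown because 3 of them, Adig, Retn and Lep, are set against the fourth, Adipoq, in the results below. Each is the 250 bases before the RefSeq start on GRCm38.p6, 5′ to 3′ on the strand of the gene, with motif matches in capitals. They are Adig at chr2:158502362-158502611, Retn at chr8:3655520-3655769, Lep at chr6:29059971-29060220 and Adipoq at chr16:23146286-23146535, all on the plus strand.
Adig: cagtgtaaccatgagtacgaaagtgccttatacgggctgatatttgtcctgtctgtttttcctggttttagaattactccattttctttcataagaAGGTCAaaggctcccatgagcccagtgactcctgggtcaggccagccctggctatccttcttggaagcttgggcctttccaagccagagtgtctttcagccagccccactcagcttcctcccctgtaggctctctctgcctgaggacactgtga
Retn: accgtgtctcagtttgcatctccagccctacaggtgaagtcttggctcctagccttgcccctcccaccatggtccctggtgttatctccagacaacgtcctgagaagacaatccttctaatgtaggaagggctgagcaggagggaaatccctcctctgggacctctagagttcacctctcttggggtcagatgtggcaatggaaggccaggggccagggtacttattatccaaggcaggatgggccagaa
Lep: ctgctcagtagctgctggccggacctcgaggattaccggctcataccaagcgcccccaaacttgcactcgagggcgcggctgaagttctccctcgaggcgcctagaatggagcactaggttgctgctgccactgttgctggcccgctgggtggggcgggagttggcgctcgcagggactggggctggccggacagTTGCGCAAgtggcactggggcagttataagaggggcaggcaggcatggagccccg
Adipoq: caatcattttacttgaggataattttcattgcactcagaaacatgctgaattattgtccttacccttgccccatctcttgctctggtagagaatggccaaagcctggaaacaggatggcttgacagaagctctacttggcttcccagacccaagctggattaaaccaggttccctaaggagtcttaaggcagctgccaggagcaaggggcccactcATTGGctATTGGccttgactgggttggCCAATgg
The motifs searched, on both strands, were TATAAA, TTGCGCAA (a C/EBP palindrome), AGGTCA (an element of nuclear receptors), a pair of AGGTCA copies 1 base apart, CCAAT and TCACNCCA (a sterol element). RefSeq entries matched 7 of the 8 genes, with 8 promoters, and Fabp4 was the gene not matched. Adig held AGGTCA 154 to 149 bases before its start, and Ucp1 held the same letters 14 to 9 bases before its start. AGGTCA occurs in 14% of the 32851 promoters of this length. Lep held TTGCGCAA 55 to 48 bases before its start, a motif found in 0.164% of all promoters. Adipoq held CCAAT 7 to 3 bases before its start and the reverse complement ATTGG at 34 to 30 and 27 to 23 bases; CCAAT occurs in 33.8% of promoters. None of the 8 promoters held TATAAA, the AGGTCA pair or TCACNCCA, which occur in 12.4%, 0.0335% and 3.67%. A match describes the letters in this window and no more.

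The hormone transcripts are taken first. In this and the following paragraphs the values of a group are given in the order of replicates 1 to 5, and 1, 2, A and B in WT_REL. Adipoq, which encodes adiponectin, stood at 30.02, 59.5, 50.6, 32.05 and 51.0 CPM in mCK-hLPL_REL and at 24.3, 40.3, 51.3 and 56.25 CPM in WT_REL. In weight loss maintenance it stood at 60.9, 26.9, 46.02, 45.1 and 22.99 CPM in mCK-hLPL_WLM and at 60.2, 29.1, 41.9, 38.9 and 70.2 CPM in WT_WLM. Every group held both low and high libraries, with a 1.98- to 2.65-fold range inside each group, and all 4 groups overlapped. Means were 44.6 ± 12.9, 43.0 ± 14.2, 40.4 ± 15.5 and 48.0 ± 16.7 CPM in mCK-hLPL_REL, WT_REL, mCK-hLPL_WLM and WT_WLM (SD), an order in which no neighbours were further apart than their SD.

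Lep, which encodes leptin, the hormone that reports fat stores to the brain, was at 12.01, 23.4, 18.95, 10.5 and 15.8 CPM in mCK-hLPL_REL and at 8.69, 14.8, 42.7 and 27.7 CPM in WT_REL. Before refeeding it was at 21.2, 10.99, 15.4, 6.46 and 9.02 CPM in mCK-hLPL_WLM and at 11.04, 4.935, 7.58, 18.8 and 17.05 CPM in WT_WLM. WT_REL replicates A and B were above all other libraries, while WT_REL replicates 1 and 2 were among the range of both WLM groups, so the groups overlapped. Lep had the widest spread of the 7 genes detected in every library, at 8.66-fold between WT_REL replicate A and WT_WLM replicate 2.

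Retn, which encodes resistin, was at 5.06, 23.4, 14.3, 9.44 and 18.1 CPM in mCK-hLPL_REL and at 5.81, 11.35, 12.04 and 16.6 CPM in WT_REL. Its values were 10.7, 4.66, 8.41, 8.84 and 3.57 CPM in mCK-hLPL_WLM and 11.1, 6.13, 8.825, 6.52 and 13.8 CPM in WT_WLM. The highest libraries were mCK-hLPL_REL replicates 2 and 5 and WT_REL replicate B, but mCK-hLPL_REL replicate 1 was below all but 2 of the WLM libraries, and the groups overlapped. Group means ran from 14.1 ± 7.18 CPM in mCK-hLPL_REL over 11.4 ± 4.42 CPM in WT_REL and 9.28 ± 3.24 CPM in WT_WLM to 7.24 ± 3.01 CPM in mCK-hLPL_WLM (SD).

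Cfd encodes complement factor D, or adipsin, a protease that starts the alternative complement pathway. It was at 80.1, 213, 177, 107 and 168 CPM in mCK-hLPL_REL and at 83.1, 147, 91.45 and 185 CPM in WT_REL. In weight loss maintenance it was at 211, 101, 161, 188 and 78.7 CPM in mCK-hLPL_WLM and at 216, 101, 183, 127 and 241 CPM in WT_WLM. The libraries high or low in Adipoq were mostly high or low in Cfd too, and the groups overlapped. WT_REL replicate A was an exception: 51.3 CPM of Adipoq there came with 91.45 CPM of Cfd.

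The 3 genes of lipid binding and the lipid droplet came next. Fabp4, a cytosolic fatty acid binding protein that capillary endothelium and macrophages also express, was at 279, 493, 415, 317.5 and 465 CPM in mCK-hLPL_REL and at 232, 287, 393 and 385 CPM in WT_REL. It was at 480.5, 301, 346, 372 and 262 CPM in mCK-hLPL_WLM and at 437, 272, 342.5, 356 and 489 CPM in WT_WLM. Fabp4 had the narrowest spread of the 8 genes over libraries, 2.13-fold, and no pair of groups was separate.

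Cidec, which lets lipid droplets fuse and grow, was at 27.5, 63.8, 38.2, 32.6 and 41.2 CPM in mCK-hLPL_REL and at 21.6, 35.6, 55.6 and 46.1 CPM in WT_REL. The WLM libraries were at 65.4, 24.2, 40.4, 39.8 and 21.4 CPM in mCK-hLPL_WLM and at 59.03, 22.3, 38.5, 43.2 and 71.25 CPM in WT_WLM. Its lowest and highest libraries, mCK-hLPL_WLM replicate 5 and WT_WLM replicate 5, were also the lowest and highest for Adipoq and Cfd, and the groups overlapped.

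Adig, or adipogenin, a small membrane protein made as fat cells mature, was at 2.04, 5.47, 6.61, 3.01 and 6.96 CPM in mCK-hLPL_REL and at 2.57, 3.96, 3.83 and 5.40 CPM in WT_REL. It was at 3.52, 1.90, 2.42, 2.46 and 1.65 CPM in mCK-hLPL_WLM and at 3.59, 2.125, 2.38, 2.80 and 3.82 CPM in WT_WLM. mCK-hLPL_REL replicates 2, 3 and 5 and WT_REL replicates 2, A and B were above all WLM libraries, WT_REL replicate A by a margin of 3.831 against 3.818 CPM. mCK-hLPL_REL replicate 1 was below the mean of mCK-hLPL_WLM, so the groups overlapped here too.

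Ucp1 was the only 1 of the 8 genes with libraries at 0. It had 0, 322, 4, 2 and 25 counts in mCK-hLPL_REL and 1, 37, 140 and 25 counts in WT_REL. In weight loss maintenance it had 3, 0, 13, 10 and 1 counts in mCK-hLPL_WLM and 70, 0, 6, 8 and 20 counts in WT_WLM. One library in each of mCK-hLPL_REL, WT_REL and WT_WLM was above 1 CPM: replicate 2 at 5.67 CPM (exact Clopper-Pearson 95% interval 5.06 to 6.32), replicate A at 3.86 CPM (3.25 to 4.55) and replicate 1 at 1.61 CPM (1.26 to 2.04). Its 3 libraries at 0 counts were mCK-hLPL_REL replicate 1, mCK-hLPL_WLM replicate 2 and WT_WLM replicate 2. The exact 95% interval there reaches up to 0.0929, 0.0949 and 0.0901 CPM in that order. A floor of 3 counts corresponds to 0.0755, 0.0772 and 0.0733 CPM. These intervals and floors cover counting error only. All 4 groups overlapped.

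**Figure D1:**
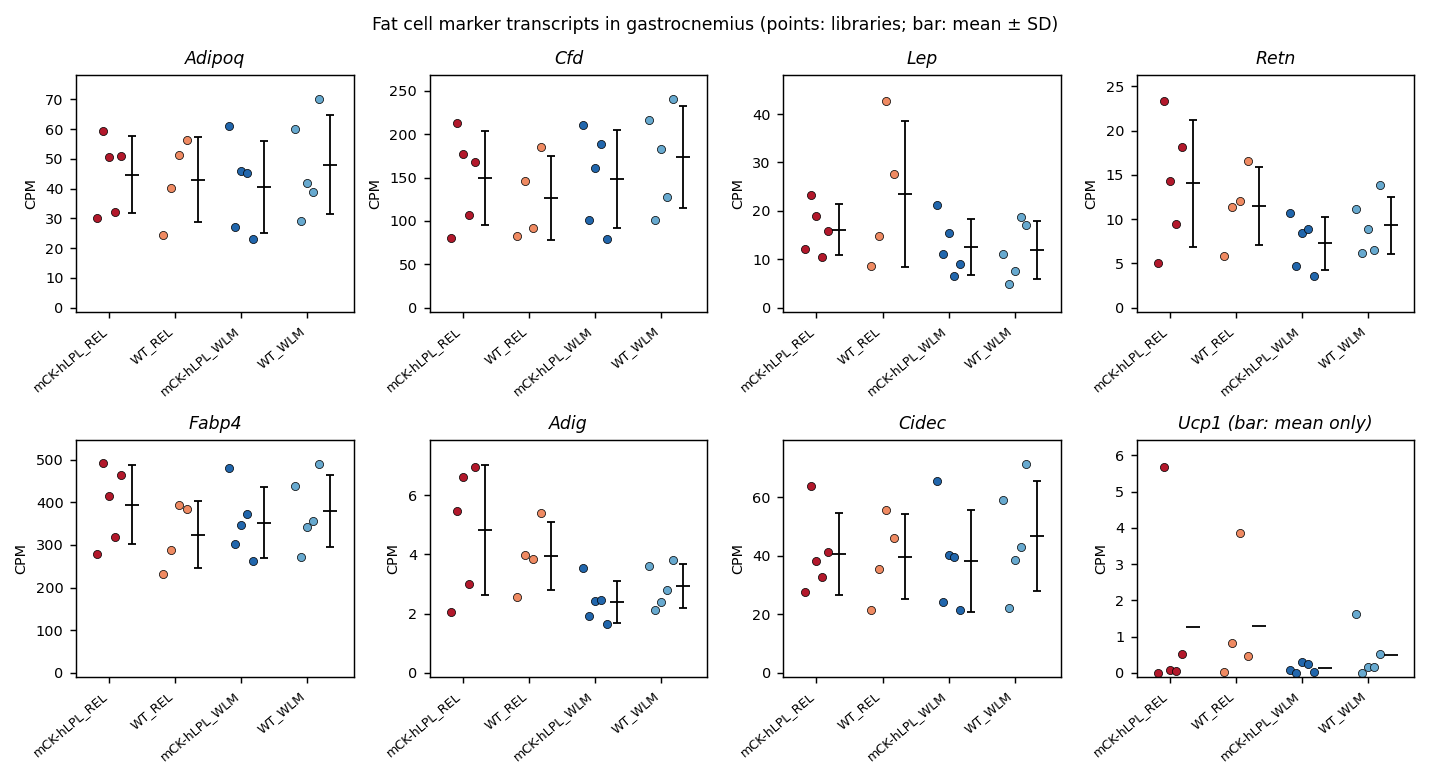
CPM of the 8 transcripts (vertical axes, one scale per gene) in the 4 groups; points are libraries and bars the mean ± SD, or the mean alone for Ucp1. The groups overlap in each panel, and the 2 highest Lep points, 42.7 and 27.7 CPM, are both WT_REL.

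In CPM, none of the 8 genes was free of overlap between REL and WLM in either genotype, where 6.57% of all genes tested were free of it in mCK-hLPL and 10.1% in WT. In the fit across all genes, refeeding in mCK-hLPL called 1 of the 8 genes. Adig was at 4.82 ± 2.19 CPM in mCK-hLPL_REL and 2.39 ± 0.72 CPM in mCK-hLPL_WLM (SD, n = 5 each). It rose by 1.02 ± 0.30 on the log2 scale (SE; edgeR quasi-likelihood, Benjamini-Hochberg adjusted p = 0.0414). Of all genes tested, 8.15% were called in this comparison, so 1 of 8 is near that share. Log2 differences of the 8 genes were all positive, with a median of 0.258 against 0.0107 over all genes tested. Retn had a difference of 0.96 ± 0.37 (edgeR adjusted p = 0.113) and Ucp1 one of 3.32 ± 1.44 (adjusted p = 0.16), and both had an unadjusted p under 0.05. The value of Ucp1 rested on mCK-hLPL_REL replicate 2, without which it was 0.34 (adjusted p = 0.926). The other 5 had small differences: Lep 0.36 ± 0.41, Fabp4 0.16 ± 0.20, Adipoq 0.14 ± 0.29, Cidec 0.09 ± 0.33 and Cfd 0.01 ± 0.31 (edgeR adjusted p from 0.639 to 0.99).

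The call of Adig stood near the threshold. It ended without any 1 of 9 libraries: mCK-hLPL_REL replicate 2, 3 or 5, WT_REL replicate 2 or A, or mCK-hLPL_WLM replicate 2, 3, 4 or 5 (edgeR adjusted p from 0.0506 to 0.105, log2 difference from 0.85 to 1.02). It also ended without the 3 libraries with most lymph node transcripts (1.02, adjusted p = 0.0885), without the 3 with most liver transcripts (0.98, adjusted p = 0.0591) and without the 3 with Ucp1 above 1 CPM (0.97, adjusted p = 0.118). The choice of these 3 sets of libraries was made with the data in view. The size of the difference thus moved little while the call did not hold.

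In wild type, refeeding called none of the 8 genes, against 4.88% of all genes tested; 1 of the 8, Lep, had an unadjusted p under 0.05, and DESeq2 also called none. Lep was at 23.5 ± 15.1 CPM in WT_REL (SD, n = 4) and 11.9 ± 5.96 CPM in WT_WLM (n = 5). Its log2 difference was 0.98 ± 0.43 (SE; edgeR, adjusted p = 0.203). The value rested on WT_REL replicates A and B: over the 17 libraries with a replicate number, which leave these 2 out, it was -0.01 (adjusted p = 0.996). Adig was at 3.94 ± 1.16 CPM in WT_REL and 2.94 ± 0.74 CPM in WT_WLM, with a difference of 0.42 ± 0.31 (adjusted p = 0.478). Retn had a difference of 0.30 ± 0.39 (adjusted p = 0.713). Cfd was at 127 ± 48.3 CPM in WT_REL and 174 ± 58.8 CPM in WT_WLM, with a difference of -0.46 ± 0.34 (adjusted p = 0.478). Ucp1 had the largest estimate, 1.34 ± 1.31 (adjusted p = 0.615), which was -0.20 without WT_REL replicate A and 2.54 without WT_WLM replicate 1. Adipoq (-0.16 ± 0.31), Fabp4 (-0.23 ± 0.21) and Cidec (-0.24 ± 0.35) had differences within their error of 0 or little past it (adjusted p from 0.592 to 0.822). The median over the 8 genes was 0.0723, against -0.0029 over all genes.

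Between genotypes, no fat cell transcript was called by edgeR or DESeq2 in either phase, and none had an unadjusted p under 0.05. After refeeding, mCK-hLPL_REL and WT_REL differed in 0.0117% of all genes tested and in none of the 8; 1.43% of genes did not overlap between these groups in CPM, again with none of the 8. Adipoq differed by 0.05 ± 0.31 on the log2 scale (95% interval -0.586 to 0.695), Retn by 0.30 ± 0.39 (-0.51 to 1.111), Adig by 0.29 ± 0.31 (-0.352 to 0.937) and Lep by -0.54 ± 0.43 (-1.428 to 0.357). The value of Lep was -0.08 without WT_REL replicate A and 0.46 without both WT_REL A and B. Ucp1 differed by 0.00 ± 1.22, with values from -2.97 to 1.52 as 1 library was left out at a time. In weight loss maintenance, 0.0294% of all genes were called and 0.799% did not overlap. There Adipoq was at 40.4 ± 15.5 CPM in mCK-hLPL_WLM and 48.0 ± 16.7 CPM in WT_WLM (SD, n = 5 each), and differed by -0.25 ± 0.29 on the log2 scale (-0.855 to 0.355). The other 7 lay between -1.98 ± 1.48 for Ucp1 and 0.08 ± 0.41 for Lep (edgeR adjusted p from 0.942 to 0.99). Ucp1 there was -0.78 without WT_WLM replicate 1 and -0.49 without the 3 lymph node libraries, and Lep ran from -0.19 to 0.31 as 1 library was left out at a time. Each interval given here spans 0, and its width bounds what these libraries could have shown. The number of genes whose response to refeeding differed between genotypes was 0 of 17028 by edgeR (0%), with 403 at an unadjusted p under 0.05, and 2 by DESeq2; no fat cell transcript was among them. The 8 genes had interaction estimates from -0.62 ± 0.59 for Lep to 1.98 ± 1.95 for Ucp1, each with edgeR adjusted p = 1. That of Lep was 0.37 without WT_REL A and B, and that of Ucp1 ran from -1.0009 to 3.5067 as 1 library was left out at a time.

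**Figure D2:**
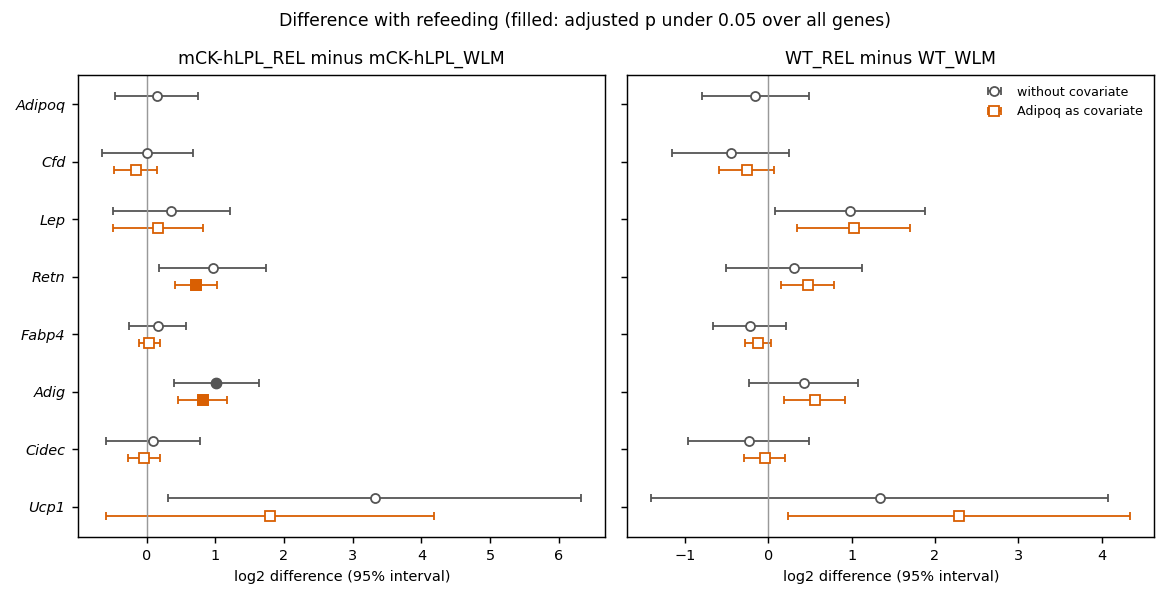
Log2 difference between REL and WLM (horizontal axes, with 95% intervals) of the 8 transcripts in mCK-hLPL (left) and WT (right), without a covariate (circles) and with log2 Adipoq as covariate (squares); filled points passed an adjusted p of 0.05 over all genes. Adig is filled in both fits in mCK-hLPL and Retn in the fit with the covariate, while in WT no point is filled.

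Within groups, most of the fat cell transcripts varied together from library to library. After the group means were taken out, log2 CPM of Fabp4 had a Pearson r of 0.963 with Adipoq over the 19 libraries (Spearman rho 0.951), Cidec 0.954 (0.975), Retn 0.934 (0.940), Cfd 0.895 (0.898), Adig 0.859 (0.812), Ucp1 0.751 (0.789) and Lep 0.704 (0.716). Values of r without the 2 libraries farthest from the middle in Adipoq, WT_REL replicate 1 and mCK-hLPL_WLM replicate 5, were 0.955, 0.940, 0.911, 0.873, 0.841, 0.720 and 0.644 in the same order. The median r over all genes tested was 0.002. Both values of each pair come from the same library, so they share its dissection, depth and scaling, and these figures are a description. Lep and Cfd were the pair least alike among the 8, with r = 0.428, and Adipoq and Fabp4 the pair most alike.

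Per unit of log2 Adipoq, within groups, Retn moved by 1.22 ± 0.116 on the log2 scale (SE), Cidec by 1.084 ± 0.087, Lep by 0.99 ± 0.247, Cfd by 0.988 ± 0.119 and Adig by 0.875 ± 0.133. Fabp4 had the shallowest slope of the 7, 0.636 ± 0.056. The endothelial list (9 genes) summed to 241 to 383 CPM and the macrophage list (9 genes) to 45.1 to 210.5 CPM over the libraries, and the part of these cells in the Fabp4 slope was not tested. Ucp1 had a slope of 5.07 ± 0.996, fitted on few counts.

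**Figure D3:**
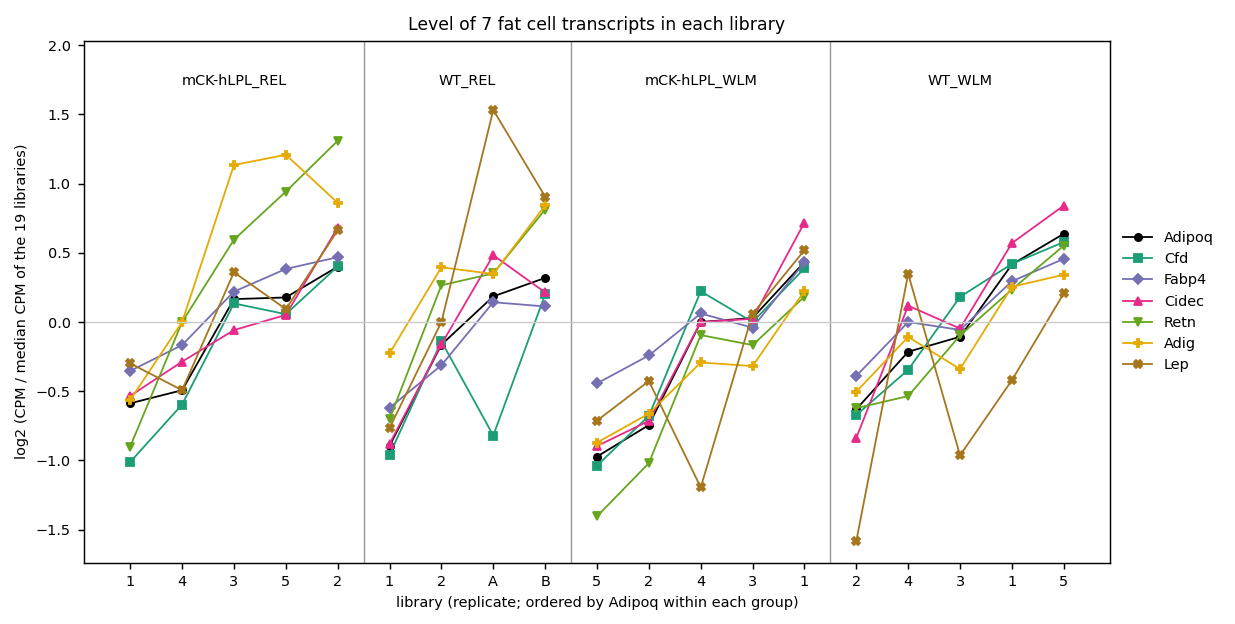
Level of 7 transcripts in each of the 19 libraries, as log2 of CPM over the median of all libraries (vertical axis), with libraries ordered by Adipoq within each group (horizontal axis). Adipoq, Cfd, Fabp4 and Cidec run together in most libraries; Retn and Adig lie above Adipoq in most REL libraries, Lep lies far above it in WT_REL replicate A, and Cfd far below it there.

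Because Adipoq differed from library to library within every group, each transcript was also set against Adipoq in its own library, a comparison chosen after the data were seen. Adig was at 6.795, 9.20, 13.1, 9.40 and 13.65 counts per 100 Adipoq counts in mCK-hLPL_REL and at 5.78, 7.075, 5.25, 5.46 and 7.16 in mCK-hLPL_WLM. In wild type it was at 10.6, 9.84, 7.47 and 9.605 counts per 100 Adipoq counts in WT_REL and at 5.975, 7.29, 5.68, 7.19 and 5.44 in WT_WLM. All 4 WT_REL libraries were above all 5 WT_WLM libraries, and 4 of the 5 mCK-hLPL_REL libraries were above all mCK-hLPL_WLM libraries, replicate 1 being the exception. Retn was at 16.9, 39.3, 28.2, 29.45 and 35.6 counts per 100 Adipoq counts in mCK-hLPL_REL and at 17.6, 17.3, 18.3, 19.6 and 15.5 in mCK-hLPL_WLM. Retn in wild type was at 23.9, 28.2, 23.5 and 29.5 in WT_REL and at 18.5, 21.04, 21.1, 16.8 and 19.7 in WT_WLM. The pattern was that of Adig, again with mCK-hLPL_REL replicate 1 as the library inside the WLM range. On this ratio, 1.22% of all genes did not overlap between WT_REL and WT_WLM and 0.769% between mCK-hLPL_REL and mCK-hLPL_WLM. Of the other 7 genes, 2 and 0 did not overlap. In CPM these shares of all genes were 10.1% and 6.57%. The ratio adds the spread of Adipoq to genes that do not vary with it. Its share over all genes is thus no like measure for genes that do, and no excess is read from it.

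The remaining ratios did not separate the phases. Cidec was at 91.4 ± 13.4 counts per 100 Adipoq counts in mCK-hLPL_REL, 91.95 ± 11.4 in WT_REL, 93.3 ± 8.16 in mCK-hLPL_WLM and 95.8 ± 12.9 in WT_WLM (SD). Fabp4 was at 896 ± 71.8, 780.1 ± 122, 925 ± 188.5 and 818 ± 107 counts per 100 Adipoq counts in the same groups, and Cfd at 328 ± 36.0, 304 ± 84.7, 366 ± 31.3 and 363 ± 43.1. WT_REL replicate A had the lowest Cfd ratio, 178, against 267 to 437 in all other libraries. It also had the highest Lep ratio, 83.3, against at most 49.2 elsewhere. Lep was at 40.02, 39.3, 37.5, 32.8 and 30.9 counts per 100 Adipoq counts in mCK-hLPL_REL and at 34.75, 40.8, 33.4, 14.3 and 39.2 in mCK-hLPL_WLM. It was at 35.8, 36.7, 83.3 and 49.2 in WT_REL and at 18.35, 16.9, 18.1, 48.4 and 24.3 in WT_WLM, where replicate 4 was inside the WT_REL range and the other 4 libraries were below it.

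**Figure D4:**
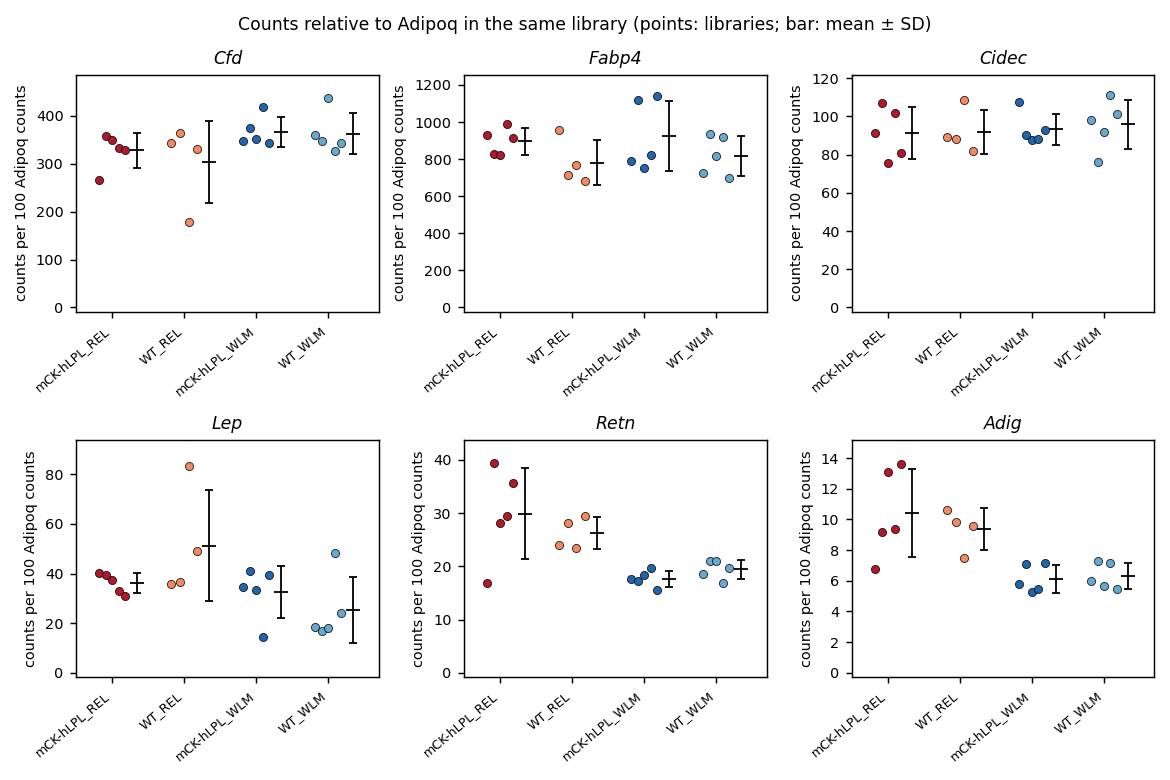
Counts of 6 transcripts per 100 Adipoq counts of the same library (vertical axes) in the 4 groups; points are libraries and bars the mean ± SD. Retn and Adig lie higher in WT_REL (26.3 ± 3.01 and 9.38 ± 1.34) than in WT_WLM (19.4 ± 1.83 and 6.32 ± 0.87) with no overlap, and Cidec has group means of 91.4 to 95.8.

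With log2 Adipoq as a covariate in the fit across all genes, also chosen after the data were seen, refeeding in mCK-hLPL called 2 of the other 7 genes, against 7.95% of all genes (4.14% higher, 3.81% lower). The covariate takes out spread only in genes that vary with Adipoq. In either genotype the share over all genes is thus no like measure for these 7, and no excess is read from it. Retn rose by 0.72 ± 0.15 on the log2 scale (SE; edgeR adjusted p = 0.00597) and Adig by 0.82 ± 0.17 (adjusted p = 0.00684). Both calls held without any 1 library (adjusted p at most 0.0245 and 0.0269), without the 3 libraries with lymph node, liver or Ucp1 transcripts in turn (adjusted p at most 0.04 and 0.0486), and with Cidec in place of Adipoq (adjusted p = 0.0205 and 0.0131). In WT, where 6.45% of genes were called (3.64% higher, 2.82% lower), none of the 7 was: Adig was at 0.55 ± 0.18 (edgeR adjusted p = 0.0671), Lep at 1.02 ± 0.32 (0.0648) and Retn at 0.47 ± 0.15 (0.0689). Ucp1 was at 2.29 ± 0.98 (0.175), and these 4 had an unadjusted p under 0.05. Leaving out 1 library brought single genes past the threshold in WT: Lep without WT_WLM replicate 4 (1.42, adjusted p = 0.0081) or mCK-hLPL_WLM replicate 4, Retn without WT_WLM replicate 2 or mCK-hLPL_REL replicate 1, and Adig without WT_REL replicate A or mCK-hLPL_REL replicate 1 or 5. With Cidec as the covariate, Lep passed in WT (1.09, adjusted p = 0.028). The difference between genotypes in this response was called for no gene by edgeR (314 of 17027 at an unadjusted p under 0.05; no other tool was run on it). For Retn it was 0.24 ± 0.21, for Adig 0.26 ± 0.25 and for Lep -0.86 ± 0.45 (each adjusted p = 1). Adipoq is itself a fat cell transcript, and a change in its level per cell would move all of these values.

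Other genes that white fat cells use were described from a list of 32 symbols, of which 31 were in the table and all 31 were tested; Tusc5, the symbol with no row, is an older name of Trarg1. Like the other marker lists, this list was chosen with earlier results of these data known. Its calls describe the list and cannot show an excess over all genes, here or with the Adipoq covariate below. With refeeding in mCK-hLPL, 8 were higher and 2 lower, where 4.11% and 4.03% of all genes were. The median log2 difference was 0.68 against 0.0107 over all genes. Mrap, which carries the receptor for adrenocorticotropic hormone to the cell surface, rose by 2.21 ± 0.36 (12.6 CPM in mCK-hLPL_REL and 2.72 CPM in mCK-hLPL_WLM; edgeR adjusted p = 0.00153). Cdo1, which starts cysteine breakdown to taurine, rose by 1.79 ± 0.33 (57.2 CPM in mCK-hLPL_REL and 16.5 CPM in mCK-hLPL_WLM; adjusted p = 0.00366), and Thrsp, a lipogenic regulator, by 1.89 ± 0.38 (82.9 CPM in mCK-hLPL_REL and 22.4 CPM in mCK-hLPL_WLM; adjusted p = 0.00635). Plin4, which coats lipid droplets, fell by 0.93 ± 0.20 (203 CPM in mCK-hLPL_REL and 388 CPM in mCK-hLPL_WLM; adjusted p = 0.00911). In wild type 2 were higher and 2 lower, where 2.63% and 2.25% of all genes were, with a median of 0.189 against -0.0029: Mrap rose by 1.90 ± 0.37 (11.4 CPM in WT_REL and 3.07 CPM in WT_WLM; adjusted p = 0.00693) and Cdo1 by 1.20 ± 0.34 (adjusted p = 0.0486). Plin4 fell by 0.90 ± 0.22 (adjusted p = 0.0227) and Pnpla2, which encodes adipose triglyceride lipase, by 0.65 ± 0.14 (adjusted p = 0.0136). The calls of Mrap held without any 1 library in both genotypes. That of Cdo1 in wild type was lost without any 1 of 14 libraries: WT_WLM replicates 1 to 4, mCK-hLPL_WLM replicates 1 to 4, all 4 of WT_REL, or mCK-hLPL_REL replicate 3 or 4 (adjusted p at most 0.188). In wild type, that of Plin4 was lost without any 1 of WT_REL replicates 1, 2 and B and WT_WLM replicate 3, and that of Pnpla2 without WT_REL replicate 1 or B. Without both WT_REL A and B, none of the 31 was called in wild type.

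Mrap was above its WLM range in every REL library. It stood at 4.51, 17.5, 15.6, 9.02 and 16.2 CPM in mCK-hLPL_REL and at 3.65, 1.72, 3.21, 3.31 and 1.69 CPM in mCK-hLPL_WLM. The wild-type values were 7.99, 10.6, 9.89 and 17.3 CPM in WT_REL and 4.38, 1.44, 2.93, 2.43 and 4.19 CPM in WT_WLM. The groups did not overlap in either genotype, and mCK-hLPL_REL replicate 1 was again the lowest REL library. With the Adipoq covariate, 12 of the 31 were higher and 2 lower in mCK-hLPL, where 4.14% and 3.81% of all genes were. In WT 11 were higher and 4 lower, where 3.64% and 2.82% of all genes were. Those higher included, named here after their values were seen, the fat cell transcription factors Cebpa (0.67 ± 0.12, edgeR adjusted p = 0.00215 in mCK-hLPL; 0.61 ± 0.12, adjusted p = 0.00599 in WT) and Pparg (0.55 ± 0.11, adjusted p = 0.00542 in mCK-hLPL; 0.51 ± 0.12, adjusted p = 0.0142 in WT). Plin1, the droplet coat of fat cells, was higher by 0.70 ± 0.16 in mCK-hLPL (adjusted p = 0.0105) and by 0.71 ± 0.16 in WT (adjusted p = 0.0143). Those lower were Plin4 (-0.95 ± 0.18 in mCK-hLPL and -0.85 ± 0.20 in WT) and Pnpla2 (-0.52 ± 0.12 in mCK-hLPL and -0.61 ± 0.13 in WT), and in WT also Fam13a (-0.66 ± 0.14, adjusted p = 0.00791) and Lgals12, which encodes a galectin of fat cells (-0.47 ± 0.13, adjusted p = 0.0423). The most abundant genes of the list were Scd1 (459 to 3300 CPM), Car3 (930 to 1350 CPM), Gpd1 (531 to 752 CPM) and Plin4 (146 to 531 CPM), of which Car3, Gpd1 and Plin4 are known from muscle fibres too. Slopes on log2 Adipoq were 0.095 ± 0.068 for Car3, 0.057 ± 0.075 for Gpd1, 0.311 ± 0.148 for Plin4 and 0.199 ± 0.095 for Pnpla2 (SE). They were 1.025 ± 0.163 for Scd1, 1.076 ± 0.144 for Mrap and 1.028 ± 0.115 for Cdo1. In which cells Plin4 and Pnpla2 fell was not tested. Between genotypes none of the 31 was called in either phase by edgeR or DESeq2, and none had an unadjusted p under 0.05.

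With refeeding in mCK-hLPL, edgeR called 1 of 8 fibroblast genes and 3 of 6 erythroid genes higher and 2 of 12 muscle fibre genes lower. It called 8.15% of all genes. DESeq2 called 4 fibroblast and 5 erythroid genes higher and 4 muscle fibre genes lower. In WT, where edgeR called 4.88% of all genes, it called 2 fibroblast genes, both higher. Of the muscle fibre and erythroid genes edgeR called none, with 3 and 5 at an unadjusted p under 0.05. Those 3 muscle fibre genes went in both directions. DESeq2 called 1 muscle fibre and 1 erythroid gene in WT, each of them higher. The shares over all genes given here are those of edgeR, and DESeq2 called more genes than edgeR in WT. Its counts thus have no like share beside them, and no excess is read from them. Summed levels were not tested, and those of the fibroblast, muscle fibre and erythroid lists each overlapped between phases in both genotypes. The fibroblast list (8 genes) summed to 843 to 1455 CPM in mCK-hLPL_REL and 419 to 947 CPM in mCK-hLPL_WLM, and to 572 to 1339 CPM in WT_REL and 327 to 1009 CPM in WT_WLM. The muscle fibre list (12 genes) had a median sum of 127400 CPM in mCK-hLPL_REL and 159900 CPM in mCK-hLPL_WLM, and of 143500 CPM in WT_REL and 154600 CPM in WT_WLM. Its sums ran from 115000 to 162500 CPM in mCK-hLPL_REL and from 142800 to 166000 CPM in mCK-hLPL_WLM. They ran from 113300 to 157500 CPM in WT_REL and from 144100 to 175900 CPM in WT_WLM. The erythroid list (6 genes) had median sums of 3479, 1910, 1201 and 1069 CPM in mCK-hLPL_REL, WT_REL, mCK-hLPL_WLM and WT_WLM. Erythroid sums ran from 1775 to 11660, 1017 to 4482, 870 to 3109 and 497.5 to 1694 CPM in the same order. The highest was that of mCK-hLPL_REL replicate 1. None of these lists had a gene at 0 in all libraries. Their part in the changes of Adig, Retn and Mrap was not tested.

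The brown and beige fat cell list of 16 genes, 12 of them tested, had no gene called with refeeding in either genotype by edgeR, with 4 in mCK-hLPL and 1 in WT at an unadjusted p under 0.05 and 2 and 0 by DESeq2. No share of all genes called by DESeq2 stands beside its counts, and no excess is read from them. Its median log2 difference was 0.342 in mCK-hLPL and 0.0798 in WT. Otop1 alone passed in WT with the Adipoq covariate (1.21 ± 0.31, edgeR adjusted p = 0.0267). Most of the list's counts came from Cox8b (243 to 426 CPM) and Cox7a1 (104 to 220 CPM), which muscle fibres also make. Cidea, a lipid droplet protein of brown fat cells, was highest in WT_WLM replicates 1 and 5 (8.04 and 4.51 CPM), mCK-hLPL_REL replicate 2 (3.7 CPM) and mCK-hLPL_WLM replicate 3 (3.69 CPM), against at most 1.77 CPM elsewhere. Both WT_WLM libraries and the mCK-hLPL_WLM one were those with most lymph node transcripts. The library with most Ucp1, mCK-hLPL_REL replicate 2, was high in Cidea (3.7 CPM) and highest in Elovl3 (0.598 CPM). Elovl3 encodes a fatty acid elongase of brown fat and skin. The rest of the list was mixed. Prdm16 was highest in a WT_REL library (4.05 CPM), and Zic1 (1.103 CPM), Lhx8 (0.371 CPM) and Ppargc1a (33.9 CPM) in WT_WLM libraries. Otop1, Dio2 and Ebf2 were highest in mCK-hLPL_REL libraries (2.62, 3.115 and 7.50 CPM). WT_REL replicate A, second in Ucp1, had Cidea at 1.57 CPM, within the range of the other libraries. mCK-hLPL_REL replicate 2 also stood apart in a keratinocyte list of 6 genes, which summed to 13.4 CPM there against at most 2.27 CPM in the other 18 libraries, with 130 counts of Krt14 and 107 of Krt5. Their part in the Ucp1 counts was not tested. Without the 3 libraries with Ucp1 above 1 CPM, Retn had a log2 difference of 0.71 in mCK-hLPL (adjusted p = 0.333) and, with the Adipoq covariate, 0.63 (adjusted p = 0.0235).

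**Figure D5:**
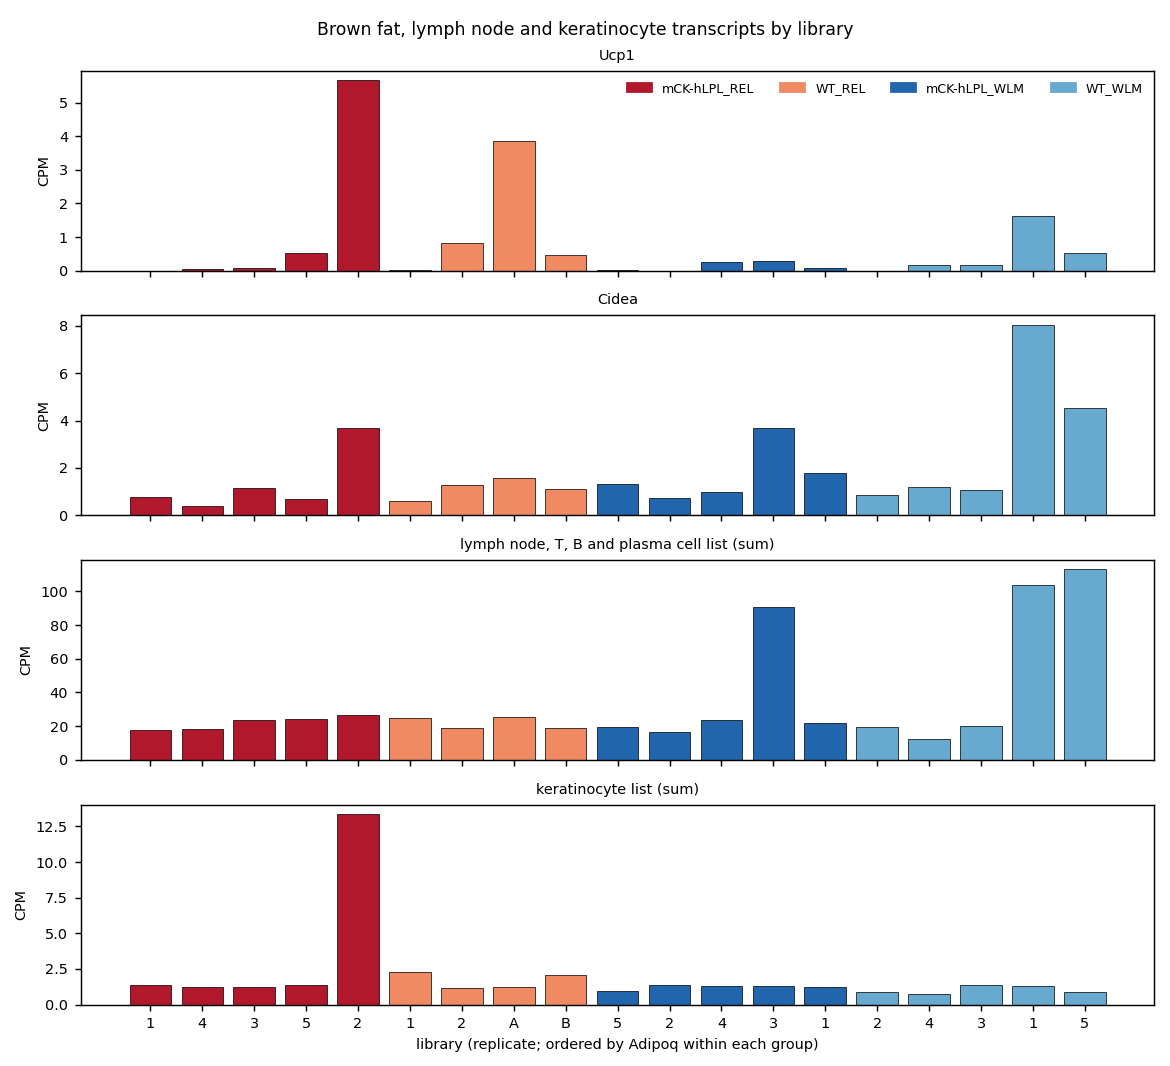
CPM of Ucp1 and Cidea and summed CPM of the lymph node, T, B and plasma cell list and the keratinocyte list (vertical axes) in each library (bars, coloured by group, ordered by Adipoq within each group). Ucp1 is highest in mCK-hLPL_REL replicate 2 and WT_REL replicate A, Cidea and the lymph node list in WT_WLM replicates 1 and 5, and the keratinocyte list reaches 13.4 CPM in mCK-hLPL_REL replicate 2 alone.

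The genes whose library-to-library pattern was most like that of Adipoq were ranked by Pearson r of log2 CPM, group means removed, over the 19 libraries. The first 10 were Phgdh (r = 0.970), Fabp4, Cidec, Adora1 (0.948), Aldh1l1 (0.943), Chdh (0.943), Serpina3c (0.938), Ces1f (0.936), Klb (0.936) and Psat1 (0.936). Phgdh and Psat1 encode enzymes of serine synthesis, Adora1 the adenosine A1 receptor, Aldh1l1 a folate dehydrogenase, Chdh choline dehydrogenase and Klb the co-receptor beta-klotho. Serpina3c and Ces1f belong to families of close paralogs, so their counts are uncertain. Without the 2 libraries farthest from the middle in Adipoq, the r of these 8 other genes was between 0.914 and 0.966. Of 17027 genes, 34 reached r = 0.9.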

How the data were processed

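RNA-seq of whole gastrocnemius was deposited as 1 table of gene counts for 19 libraries, with column totals from 35595030 to 51073355. The deposited file is named for raw counts but its sheet for variance-stabilised values. Its values were whole, and their median-ratio size factors ran from 0.7699 to 1.298, where counts already divided by such factors would give about 1, so they were treated as counts that the authors had not normalized. The tools named in the submitters' processing notes are Salmon 0.14.2 and DESeq2 1.28.1, and the builds are GRCm38 and mm10. What each was used for, the gene annotation and the strand setting: not given in the sources used here. In 24 rows a spreadsheet had turned the symbol into a date; these rows held 0.0628% of counts and are not named. The numbers of 2 WT_REL columns cannot be matched with certainty to the sample titles, so these libraries are called A and B and carry no replicate number. No batch is given in the labels.

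The 8 genes and all marker lists were chosen with earlier results of these data known. Genes with enough counts (edgeR filterByExpr, minimum count 10, minimum total 15) were scaled by TMM (factors 0.8804 to 1.166) on library sizes summed over the kept genes. They were fitted in all 4 groups together by edgeR 4.0.16 quasi-likelihood with limma 3.58.1 in R 4.3.3. Benjamini-Hochberg adjustment ran over 17028 genes at 0.05. A prior count of 2 was used for log2 CPM, in the covariate and the correlations, and was not set in the fit. Each SE of a log2 difference is its absolute size over the square root of the F value. The method was tested on simulated data. Beside the 8 genes, the text names in each list up to 4 genes of highest CPM and up to 4 called genes of smallest p per comparison. It also names the 10 genes most like Adipoq. Cebpa, Pparg, Plin1, Fam13a, Lgals12, Cidea, Elovl3, Prdm16, Zic1, Lhx8 and Dio2 fall outside this rule and were named after their values were seen. Alternatives were robust moderation, other scaling, no filter or a minimum count of 50, DESeq2 1.42.0, voom with library weights, only the groups compared, a replicate block and leaving out each library. The ratio to Adipoq, the Adipoq or Cidec covariate and the fits without sets of 3 libraries were chosen after seeing the data. Intervals on single counts are exact Clopper-Pearson at 95%, with a floor of 3 counts at 0, and cover counting error only. No library was a copy of another: over 36 pairs within groups the smallest chi-square per degree of freedom was 25.64.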

Additional observations from a re-analysis of the deposited data

Results flagged for a closer look

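In each group of 4 or 5 libraries, the highest and the lowest library were compared with their nearest neighbour by Dixon's criterion, for CPM and for counts per 100 Adipoq counts. Of 60 such group tests, 6 passed. Chance alone passes about 1 in 20 where values are independent and normal. Here CPM and ratio come from the same libraries and Ucp1 has few counts, so the 6 cannot be set against that rate. Ucp1 stood at 5.666 CPM in mCK-hLPL_REL replicate 2, with the next library of the group at 0.5102 CPM, and at 9.524 counts per 100 Adipoq counts, with the next at 1. In WT_WLM, replicate 1 had 2.681 counts of Ucp1 per 100 Adipoq counts, with the next library at 0.7559. Lep was at 14.32 counts per 100 Adipoq counts in mCK-hLPL_WLM replicate 4, where the next lowest library of its group had 33.43. Lep was at 48.37 counts per 100 Adipoq counts in WT_WLM replicate 4, where the next highest had 24.3. Cidec was at 107.4 counts per 100 Adipoq counts in mCK-hLPL_WLM replicate 1, with the next at 92.93.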

How the results depend on the processing

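The call of Adig with refeeding in mCK-hLPL ended with voom weights (0.94, adjusted p = 0.0703), with only the 2 groups compared (adjusted p = 0.0836), over the 17 libraries with a replicate number (adjusted p = 0.0507) and in the further settings named above; Retn was called with no scaling beyond library size (1.18, adjusted p = 0.0405) and without mCK-hLPL_REL replicate 1 (1.18, adjusted p = 0.0396). Scaling by library size alone moved the median log2 difference of all genes by 0.219 in mCK-hLPL and 0.139 in WT, and the share of calls that were higher to 96.4% and 89.5%, against 50.5% and 53.9%. Counts of calls depended on the setting. With refeeding in mCK-hLPL (1387 genes) they were 3941 with library size only, 793 with no filter, 628 with only the 2 groups, 608 without the 3 lymph node libraries and 488 without the 3 Ucp1 libraries. Of the 8 fat cell genes, 2 were called with library size only and 0 with voom weights, only the 2 groups, the 17 numbered libraries, or without the lymph node, Ucp1 or liver libraries; of the other white fat genes 6 were called without the lymph node and 4 without the Ucp1 libraries. With refeeding in WT (831) they were 1508 with library size only, 492 with no filter, 1372 with DESeq2, 1276 with voom weights, 166 over the 17 libraries, and 316, 514 and 462 without the lymph node, Ucp1 and liver libraries. Of the other white fat genes in WT, 7 were called with DESeq2, 0 over the 17 libraries, 1 without the lymph node and 2 without the liver libraries. Between genotypes in WLM (5) they were 22 with DESeq2, 2 with only the 2 groups, and 3 without the lymph node and 3 without the Ucp1 libraries; in REL (2) they were 27 with DESeq2 and 9 with voom weights; for the interaction (0) they were 2 with DESeq2. With the Adipoq covariate in mCK-hLPL (1353) they were 528 without the lymph node and 692 without the Ucp1 libraries, and in WT (1099) 339 over the 17 libraries, 372 without the lymph node and 602 without the liver libraries; of the 7 genes in WT 1 was called with Cidec as covariate, and of the other white fat genes 6 over the 17 libraries and 5 without the lymph node libraries. Replicate numbers did not pair the samples: same-numbered libraries of different groups had correlations of -0.458 to 0.305 (median -0.071, 21 pairs), against a median of 0.038 for other numbers (84 pairs). With the replicate block, over 17 libraries, calls were 2 and 1 between genotypes in WLM and REL, 484 and 32 with refeeding in mCK-hLPL and WT, 0 of the 8 genes in mCK-hLPL (Adig 0.96, adjusted p = 0.136), 4 and 0 of the other white fat genes, and, with the Adipoq covariate, 584 and 85 in all and 3 of the other white fat genes in WT. Signs turned, without a call on either side, for Lep between genotypes in REL (block 0.47, same 17 libraries 0.46), with refeeding in WT (block -0.0531, same 17 libraries -0.0107) and for the interaction (block 0.42, same 17 libraries 0.37). They also turned for Ucp1 with refeeding in WT (block -2.34, same 17 libraries -0.24) and for its interaction (voom -0.25, without the Ucp1 libraries -0.67), and for Cfd in WT with the covariate (block 0.0554, same 17 libraries 0.0052). Leaving out 1 library at a time gave 3 to 7 calls between genotypes in WLM, 674 to 1705 with refeeding in mCK-hLPL, 257 to 1027 in WT and 0 to 1 for the interaction; 0 to 2 of the 8 genes in mCK-hLPL and 1 to 5 of the other white fat genes in WT. With the covariate it gave 645 to 1447 calls in mCK-hLPL, 450 to 1380 in WT, 0 to 1 for the interaction, 0 to 2 of the 7 genes and 9 to 16 of the other white fat genes in WT. Ucp1 ran from -0.20 to 2.54 with refeeding in WT and from -1.0009 to 3.5067 for the interaction. The causes of these shifts were not tested beyond the fewer libraries or genes that a setting itself leaves. Of 3010 values of single genes under alternatives, 2824 kept their side of the threshold and their direction, a sign change smaller than the standard error counted as kept, 162 were no longer called, 10 were newly called and 14 turned. Many of these values began far from the threshold and could hardly change side. The 2824 thus do not measure how firm the calls are.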

Other observations

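Cells that border fat cells were followed by marker lists in the same fits, in which 8.15% of all genes were called with refeeding in mCK-hLPL and 4.88% in WT. Both shares are those of edgeR. The DESeq2 counts below have no like share beside them, and no excess is read from them. Of 11 genes of fat cell precursors and fibro-adipogenic cells, edgeR called 1 with refeeding in mCK-hLPL, near its share over all genes, and DESeq2 called 3. Fgf10, a growth factor of fat cell precursors, rose by 1.05 ± 0.32 on the log2 scale (SE, edgeR adjusted p = 0.0459). None was called in WT by edgeR, with 2 at an unadjusted p under 0.05 and 1 called by DESeq2. Of 8 fibroblast genes, DESeq2 called 4 in mCK-hLPL and 3 in WT. By edgeR, Col3a1 rose in mCK-hLPL by 1.43 ± 0.35 (edgeR adjusted p = 0.0183). In WT, Col3a1 rose by 1.30 ± 0.37 (0.0464) and Col1a1 by 1.77 ± 0.41 (0.0183) in the same fit. Of 9 endothelial genes, Kdr and Tek, receptors for vascular growth factors, rose by 0.49 ± 0.14 (0.0351) and 0.44 ± 0.09 (0.00883) in mCK-hLPL. Of 8 Schwann cell genes, S100b rose by 0.86 ± 0.25 in mCK-hLPL (0.0378). No gene of the macrophage list (9) was called with refeeding by edgeR, with 3 in mCK-hLPL and 1 in WT at an unadjusted p under 0.05, and 1 and 0 by DESeq2. Of 16 lymph node, T, B and plasma cell genes tested, edgeR called none, with 2 in mCK-hLPL and 13 in WT at an unadjusted p under 0.05, and DESeq2 called 0 and 6. In WT, 13 of these genes thus had a p under 0.05 with a list median of -4.12 on the log2 scale, and WT_WLM replicates 1 and 5 were the wild-type libraries high in this list.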
